A study of Mus musculus with 17 samples.

Results

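The Eph receptors, ephrins, netrin 1 and its receptors, neuropilins, plexins, Slits, Robos and Flrt proteins described here are a list of 43 mouse genes, out of 49671 genes in the count tables. The list does not hold every member of these families and was chosen with earlier results of these data known. Another 17 genes were listed apart as further family members, and 0 of the 10 tested were called over the arms (7.62% of all genes tested). All 43 were found in the annotation. They divide into 12 Eph receptors, 8 ephrins, 7 genes of the netrin system, 9 neuropilins and plexins, 5 Slits and Robos, and 2 Flrt genes. RNA came from R1 mouse embryonic stem cells with a FOXA2-Venus reporter genotype, in a study of how neural tube organoids organise a floor plate, the strip of cells along the ventral midline. Cells labelled FOXA2-positive and FOXA2-negative were compared in 3 arms, and all arms had received retinoic acid (RA). The RA arm had 18 hours of RA, and no group without RA was compared. The BMP4 arm had 18 hours of RA, then 6 hours with no agent, then BMP4 (a bone morphogenetic protein) for 8 hours. The LDN arm had the same schedule with the agent labelled LDN in place of BMP4. Each group had 3 libraries, except FOXA2-positive LDN, which had the 2 numbered 2 and 3 (number 1 was not analysed here). The labels do not say whether replicate libraries were grown as separate cultures. The spread behind each p-value may therefore be technical only.

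Eph receptors are receptor tyrosine kinases that bind ephrins held in the membrane of neighbouring cells, and signals pass into both cells on contact. EphA receptors mostly bind the lipid-anchored ephrin-A proteins and EphB receptors the transmembrane ephrin-B proteins, and this contact signalling is known for cell sorting and boundary formation in the embryo. Netrins, Slits and semaphorins are guidance cues read by DCC, neogenin and UNC5 receptors, by Robo receptors, and by neuropilins with plexins, respectively. The floor plate is a classical source of netrin 1 and Slit proteins for commissural axons. FLRT proteins are membrane proteins that bind UNC5 receptors and latrophilins and take part in adhesion and repulsion between cells.

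In the main edgeR fit no member was called both by fraction and by treatment. Alternative fits did call some of the fraction members by treatment. They were Epha2 and Efna5 (BMP4 against LDN, FOXA2-positive cells), Efna5 again (LDN against RA, FOXA2-positive cells) and Plxna2 (LDN against RA, FOXA2-negative cells). Flrt3 was higher in FOXA2-positive cells in each of the 3 arms. Averaged over the arms, 9 of 40 tested members were called higher in FOXA2-positive cells (3.12% of all genes tested), among them Nrp1, Epha4, Efna5 and Plxna2, and 1, Epha2, was called lower (4.5% of all genes). Unc5b did not separate by fraction and stood at 48.6 to 80.6 CPM (counts scaled to library size by edgeR's TMM method) in the 6 BMP4 libraries against 6.81 to 16.4 CPM in the 5 LDN libraries. Levels in CPM are comparable between libraries for 1 gene, and levels of different genes are compared only per kilobase of exon.

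The 250 bases before a listed start of transcription are shown for 4 members whose libraries did not overlap in a fraction or treatment comparison (RefSeq, GRCm38.p6). Of these, Efna1 was not called by edgeR in any comparison and was chosen after its values were seen. Flrt3 (ENSMUSG00000051379, gene at chr2:140650914-140671469) and Nrp1 (ENSMUSG00000025810, chr8:128358604-128503363) did not overlap between fractions, and their windows are chr2:140671477-140671726 on the minus strand and chr8:128358823-128359072 on the plus strand. Unc5b (ENSMUSG00000020099, chr10:60762593-60831581) and Efna1 (ENSMUSG00000027954, chr3:89271733-89281142) did not overlap between BMP4 and LDN, and their windows are chr10:60831582-60831831 and chr3:89279646-89279895, both on the minus strand. Efna1 has 2 listed starts, and the window of the downstream one is shown because it holds a searched motif, whereas the window of the other start (chr3:89280952-89281201) held none. The gene spans are from GENCODE M21. By those spans the Nrp1 window and the Efna1 window shown lie inside the gene, not before it. Each runs 5′ to 3′ toward the gene, and capitals mark the letters GGCGCC, a site described for SMAD1 and SMAD5.
Flrt3: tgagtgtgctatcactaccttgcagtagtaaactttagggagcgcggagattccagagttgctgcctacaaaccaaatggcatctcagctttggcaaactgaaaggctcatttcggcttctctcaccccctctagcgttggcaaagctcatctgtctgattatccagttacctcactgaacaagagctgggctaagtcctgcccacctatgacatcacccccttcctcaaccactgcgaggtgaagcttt
Nrp1: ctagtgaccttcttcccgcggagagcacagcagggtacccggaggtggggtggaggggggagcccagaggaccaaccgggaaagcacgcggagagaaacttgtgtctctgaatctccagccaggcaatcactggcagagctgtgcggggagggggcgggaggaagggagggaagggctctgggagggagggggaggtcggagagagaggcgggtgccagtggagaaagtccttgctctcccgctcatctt
Unc5b: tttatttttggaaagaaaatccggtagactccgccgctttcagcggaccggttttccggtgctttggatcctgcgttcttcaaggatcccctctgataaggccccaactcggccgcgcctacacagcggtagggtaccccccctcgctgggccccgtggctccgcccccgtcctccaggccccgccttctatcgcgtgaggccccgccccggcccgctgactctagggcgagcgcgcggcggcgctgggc
Efna1: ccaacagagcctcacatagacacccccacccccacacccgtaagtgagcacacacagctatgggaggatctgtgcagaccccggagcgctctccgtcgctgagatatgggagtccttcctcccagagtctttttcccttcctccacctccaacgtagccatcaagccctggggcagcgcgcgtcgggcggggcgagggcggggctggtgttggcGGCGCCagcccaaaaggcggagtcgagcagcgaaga
GGCGCC stood at position 215 of the Efna1 window, counted from its 5′ end, and in none of the other 3 windows. Windows were on file for 36 of the 43 members, and 11 of the 41 windows of tested members held GGCGCC, against 9.59% of 32851 windows of all genes, on either strand. Members' windows were richer in G and C, with a median of 65.6% against 52.4%. The forkhead motifs TGTTTAC and TGTTTGC were found in 0 and 1 of the 41 windows (3.17% and 4.30% of all windows), the latter upstream of Efna2, and the GLI motif GACCACCCA in 0 (0.225% of all), each searched on both strands, and no motif contains another. A match describes letters in the window only.

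The libraries held 8435845 to 10796136 counts assigned to genes (median 9785138). Foxa2 stood at 0 to 2.93 CPM in the 9 FOXA2-negative and at 18.4 to 44.2 CPM in the 8 FOXA2-positive libraries. Shh, the signal of the mature floor plate, was at 0 in all groups other than FOXA2-positive LDN (0.189 and 1.08 CPM), so this defining marker of the mature floor plate was absent or near 0. Both RA libraries numbered 1 stood apart with 6.94% and 7.43% mitochondrial counts, against 3.5% to 4.8% elsewhere. Genes of chromosome 6 were shifted toward FOXA2-positive cells (median log2 difference over the 3 arms 0.29) and those of chromosome 8 away from them (-0.29), while the medians of the other 18 chromosomes were -0.02 to 0.06. Epha1, Ephb6, Plxna1, Plxna4 and Plxnd1 lie on chromosome 6 and Efnb2, Unc5d and Nrp1 on chromosome 8, and the part of these shifts in their values was not tested.

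Of the 43 members, 40 had enough counts to be tested. The other three were near 0: Epha3 with 4 counts in all 17 libraries, Dcc with 13 and Plxna4 with 81, of which 56 came from 1 library, FOXA2-positive LDN 3, and 0 from FOXA2-positive LDN 2. Per kilobase of exon and averaged over the 17 libraries, the ephrin Efna4 was highest at 20.8 CPM per kb, followed by Efnb1 at 17.7 and Efna5 at 12.5. Plxna1 (9.13), Flrt3 (8.93), Efna2 (7.46), Unc5b (5.29), Ephb3 (5.15) and Plxnb2 (5.02 CPM per kb) came next. The leading ephrins thus lay above the leading Eph receptors, Ephb3 and Epha4 (3.51 CPM per kb), on the same scale. Netrin 1 (Ntn1) was at 1.16 CPM per kb, and its receptor gene neogenin (Neo1) at 2.73, while Dcc was at 0.0061.

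**Figure D1:**
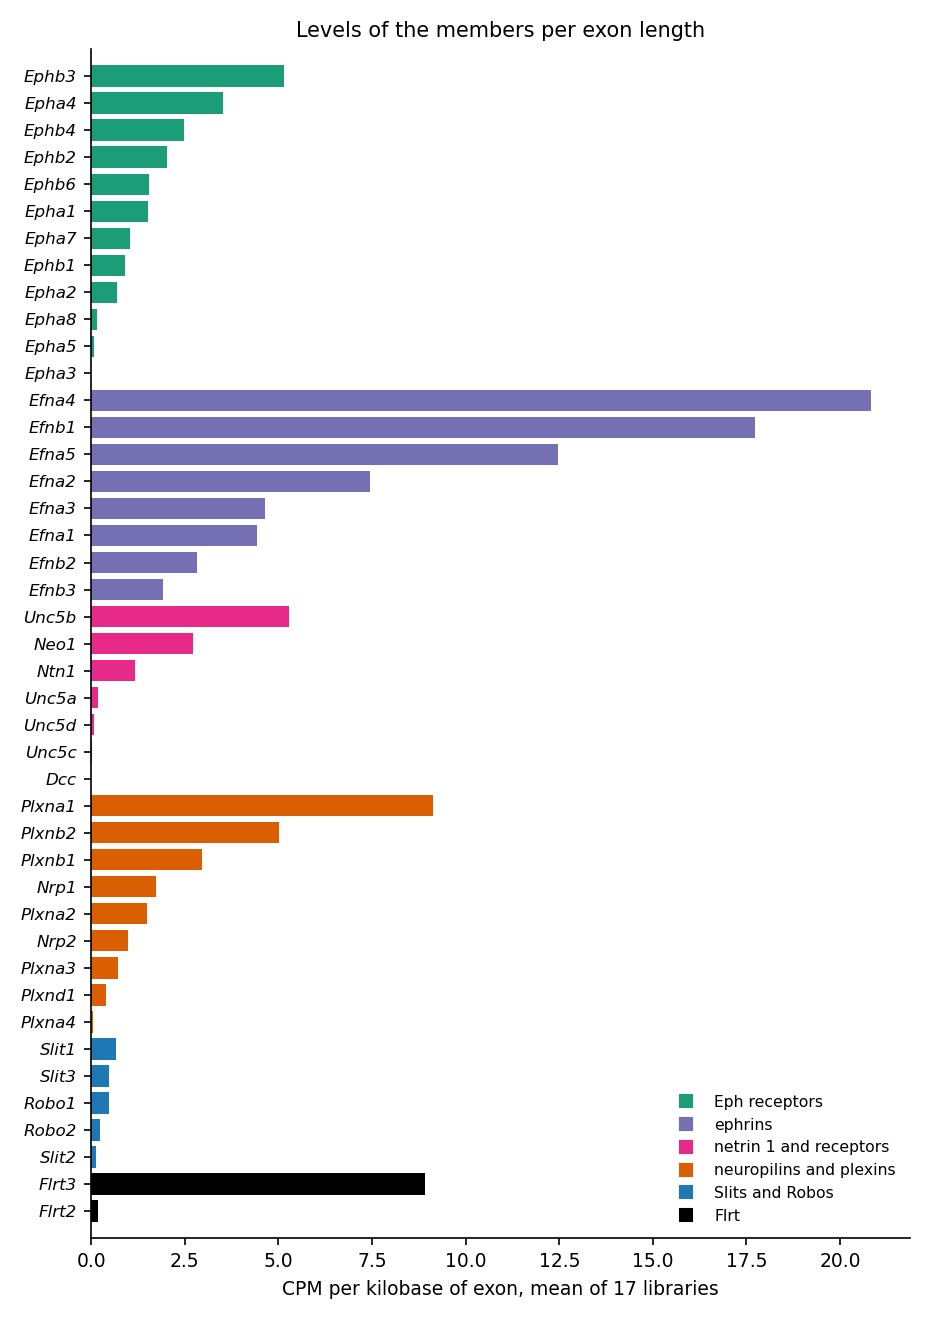
Levels of all 43 members per exon length. Each bar is the mean over 17 libraries of TMM-scaled CPM divided by exon length in kilobases, coloured by family. Efna4 reaches 20.8 CPM per kb, and Epha3, Dcc and Unc5c are close to 0.

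The first comparison asked which members differ between FOXA2-positive and FOXA2-negative cells. With edgeR's quasi-likelihood test and Benjamini-Hochberg adjustment over 17813 genes at 0.05, 1 of 40 members was called in RA (Flrt3, higher) against 1.19% of all genes tested, 0.371% higher and 0.82% lower. The BMP4 arm also called 1 (Flrt3, higher) against 0.921%, 0.32% higher and 0.601% lower. The LDN arm called 3 (Flrt3 and Nrp1 higher, Epha2 lower) against 0.994%, 0.286% higher and 0.707% lower. The mean of the 3 differences, which uses the same libraries, called 10 of 40 members against 7.62% of all genes, 9 of them higher (3.12% of all genes) and 1 lower (4.5%). The median log2 difference over the 40 members was 0.42 (0.34 with the 5 members that have a group at 0 counts set to their bound), against -0.03 over all genes tested, and 30 of 40 members had a positive difference against 47.4% of all genes. In bulk RNA, fewer cells of a type and less RNA per cell cannot be told apart.

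Flrt3, a ligand of UNC5 receptors and latrophilins, had the smallest adjusted p of the members over the 3 arms. In RA it stood at 35.0, 20.8 and 19.4 CPM in FOXA2-negative libraries and at 102, 70.8 and 59.3 CPM in FOXA2-positive libraries 1, 2 and 3. In BMP4 the values were 18.6, 12.5 and 12.6 CPM against 59.4, 60.0 and 57.3 CPM. In LDN they were 17.6, 39.4 and 19.7 CPM against 60.6 and 73.7 CPM. Every FOXA2-positive library lay above every FOXA2-negative one, and the 3 FOXA2-positive BMP4 libraries lay close together. Log2 differences were 1.62 ± 0.30 (SE; edgeR adjusted p = 0.00383) in RA, 2.02 ± 0.31 (0.00075) in BMP4, 1.39 ± 0.32 (0.0288) in LDN and 1.68 ± 0.18 (5.24e-07) over the 3 arms. The RA and BMP4 calls held with each library left out, whereas the LDN call was lost without any 1 of 4 of its 5 libraries (all but FOXA2-negative 2; adjusted p 0.0856 to 0.268) and in a model of the LDN groups alone (0.0954). Flrt3 lies inside Macrod2 on the opposite strand (3745 counts in all libraries against 7206 for Flrt3), and since the strand setting of the counting is not given, their reads cannot be told apart where they overlap. Its paralogue Flrt2 was low, at 0 to 5.56 CPM, and was not called.

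Nrp1, the co-receptor of class 3 semaphorins and of VEGF, was higher in FOXA2-positive cells as well. In RA it stood at 14.1, 12.4 and 5.16 CPM against 33.6, 22.1 and 19.3 CPM, negative libraries first. Its BMP4 values were 13.9, 3.55 and 6.51 CPM against 23.9, 23.9 and 24.7 CPM. Its LDN values were 9.75, 5.44 and 6.28 CPM against 40.2 and 20.9 CPM. The 8 FOXA2-positive libraries (19.3 to 40.2 CPM) did not overlap the 9 FOXA2-negative ones (3.55 to 14.1 CPM). The log2 difference was 1.24 ± 0.44 in RA (edgeR adjusted p = 0.247), 1.60 ± 0.45 in BMP4 (0.0992), 2.10 ± 0.49 in LDN (0.029) and 1.65 ± 0.27 over the 3 arms (0.000173). The last held with every library left out, and the LDN call was lost without FOXA2-negative 2 (0.109), FOXA2-negative 3 (0.124) or FOXA2-positive 2 (log2 difference 1.56, adjusted p 0.362). In BMP4 it was called by DESeq2 (1.59, adjusted p = 0.0426) and with the replicate number as a block (1.80, 0.025). Nrp1 lies on chromosome 8, whose median went the other way, and its difference less that median was 1.94.

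Among the other semaphorin receptors, Plxna2, a class 3 semaphorin co-receptor, was called over the 3 arms. In RA it stood at 45.5, 24.4 and 24.9 CPM against 60.6, 33.8 and 32.4 CPM. The BMP4 libraries had 13.3, 16.5 and 19.3 CPM against 23.9, 29.0 and 26.4 CPM. The LDN libraries had 7.86, 17 and 9.71 CPM against 24.4 and 26.7 CPM. The fractions overlapped in RA, where the FOXA2-positive library was the higher one within each replicate number, and were apart in BMP4 and LDN. The log2 difference over the arms was 0.75 ± 0.20 (edgeR adjusted p = 0.0177), and the call was lost without FOXA2-positive RA 1 (0.0521) or FOXA2-positive LDN 3 (0.0534). Of the 8 neuropilins and plexins tested, 7 had a positive difference (47.4% of all genes) and 2 were called higher (3.12% of all genes). Plxna1, another co-receptor of class 3 semaphorins, had 80.5 ± 15.97 and 92.8 ± 13.1 CPM in FOXA2-negative and FOXA2-positive RA cells, 76.4 ± 22.1 and 100.4 ± 9.83 in BMP4 (SD, n = 3 each) and 62.6 ± 9.91 (n = 3) and 83.6 ± 9.69 (n = 2) in LDN. Its log2 difference was 0.34 ± 0.13 over the arms (adjusted p = 0.104), beside its chromosome median of 0.29. The class 4 semaphorin receptors Plxnb1 and Plxnb2 were not called. Plxnb2 had 36.1 ± 8.34 and 39.3 ± 10.9 CPM in RA, 25.1 ± 3.17 and 41.5 ± 2.80 in BMP4 and 44.4 ± 6.91 and 50.1 ± 22.5 in LDN, with a difference of 0.34 ± 0.16 (0.226). Plxnb1 had 22.9 ± 5.28 and 32.7 ± 6.502 CPM in RA, 25.5 ± 3.60 and 33.0 ± 6.08 in BMP4 and 29.3 ± 6.93 and 26.6 ± 9.97 in LDN, with 0.25 ± 0.17 (0.459). Plxnd1, the endothelial semaphorin 3E receptor, ranged from 0.094 to 6.02 CPM (1.61 ± 0.64, adjusted p = 0.139). DESeq2 called Plxnd1 (1.62, 0.0438).

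Epha4, an EphA receptor that binds both ephrin classes, was higher in FOXA2-positive cells over the arms. In RA it stood at 29.5, 29.2 and 19.8 CPM against 64.3, 31.0 and 43.5 CPM in FOXA2-positive libraries. In BMP4 it stood at 14.8, 21.4 and 17.2 CPM against 38.5, 30.6 and 31.0 CPM. In LDN it stood at 15.2, 13.3 and 21.4 CPM against 20.5 and 40.1 CPM. The fractions were apart in RA and BMP4, and in LDN the lower FOXA2-positive library lay within the FOXA2-negative range. The log2 differences were 0.82, 0.91 and 0.86 in RA, BMP4 and LDN, and the mean was 0.86 ± 0.19 (edgeR adjusted p = 0.0038), which held in every alternative fit run.

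Epha5, an ephrin-A receptor, was near the limit of detection. In RA it had 0.104, 0 and 0 CPM against 1.77, 1.41 and 0.409 CPM, a ratio of 34.3 from 35 counts against 1 (95% exact counting interval 5.77 to 1393). In BMP4 it had 0 in all 3 FOXA2-negative libraries against 0.567, 2.30 and 2.81 CPM, at least 17.8-fold higher when the group at 0 is set to 3 counts in all. In LDN it had 2.72, 0 and 0 CPM against 2.84 and 3.73 CPM. Each FOXA2-positive library lay above the FOXA2-negative libraries of its arm, and 1 FOXA2-negative LDN library came close to them. Over the arms Epha5 was called higher (edgeR adjusted p = 0.0263). The fitted log2 difference of 4.58 depends on the group at 0 and is no bound, and the call was lost without FOXA2-negative RA 2 (0.0532) or FOXA2-positive LDN 3 (0.058). Such intervals and floors cover counting error only.

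Epha2, a receptor of ephrin-A1 that is known from epithelial cells, was the only member called lower. In RA it stood at 4.18, 5.78 and 4.28 CPM in FOXA2-negative libraries against 2.21, 0 and 0.818 CPM in FOXA2-positive libraries. Its BMP4 values were 2.91, 3.12 and 4.34 CPM against 4.91, 5.66 and 4.36 CPM. Its LDN values were 5.03, 1.36 and 4.80 CPM against 0 in both FOXA2-positive libraries. FOXA2-positive libraries were thus below all FOXA2-negative ones in RA and LDN and above them in BMP4, where the nearest pair was 4.36 against 4.34 CPM. FOXA2-positive LDN cells were at least 23.3-fold lower (111 counts against 0, with 3 counts in all as the floor; edgeR adjusted p = 0.0445), while the log2 difference was -2.23 ± 1.08 in RA (0.467) and 0.52 ± 1.02 in BMP4 (0.945). The mean over the arms was called lower (0.0128) and lost its call without FOXA2-positive LDN 2 (0.0686) or 3 (0.0589). The LDN call was lost without any 1 of 4 of the 5 LDN libraries (all but FOXA2-negative 2; 0.0884 to 0.299), in a model of the LDN groups alone (0.141) and with the replicate number as a block (0.137).

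No EphB receptor was called. Of the 5, Ephb3 had the highest level, with 38.7 ± 4.46 and 33.0 ± 6.40 CPM in FOXA2-negative and FOXA2-positive RA cells, 24.6 ± 7.93 and 29.5 ± 6.06 in BMP4 (SD, n = 3 each) and 31.1 ± 15.3 (n = 3) and 55.2 ± 14.2 (n = 2) in LDN. Its log2 difference was 0.29 ± 0.19 over the arms (edgeR adjusted p = 0.426). Ephb2 had 30.3 ± 11.8 and 21.7 ± 3.08 CPM in RA, 23.9 ± 7.94 and 23.9 ± 5.80 in BMP4 and 27.1 ± 2.58 and 27.1 ± 2.39 in LDN, with a difference of -0.16 ± 0.19 (0.743). Ephb4 lay between 6.01 and 22.8 CPM with 0.10 ± 0.29 (0.948). Over the arms, Epha4 and Epha5 were the 2 of 11 tested Eph receptors called higher (3.12% of all genes) and Epha2 the 1 called lower (4.5%). Epha1 overlaps Zyx on the opposite strand (7101 counts against 987), so its reads are uncertain in the same way as those of Flrt3.

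**Figure D2:**
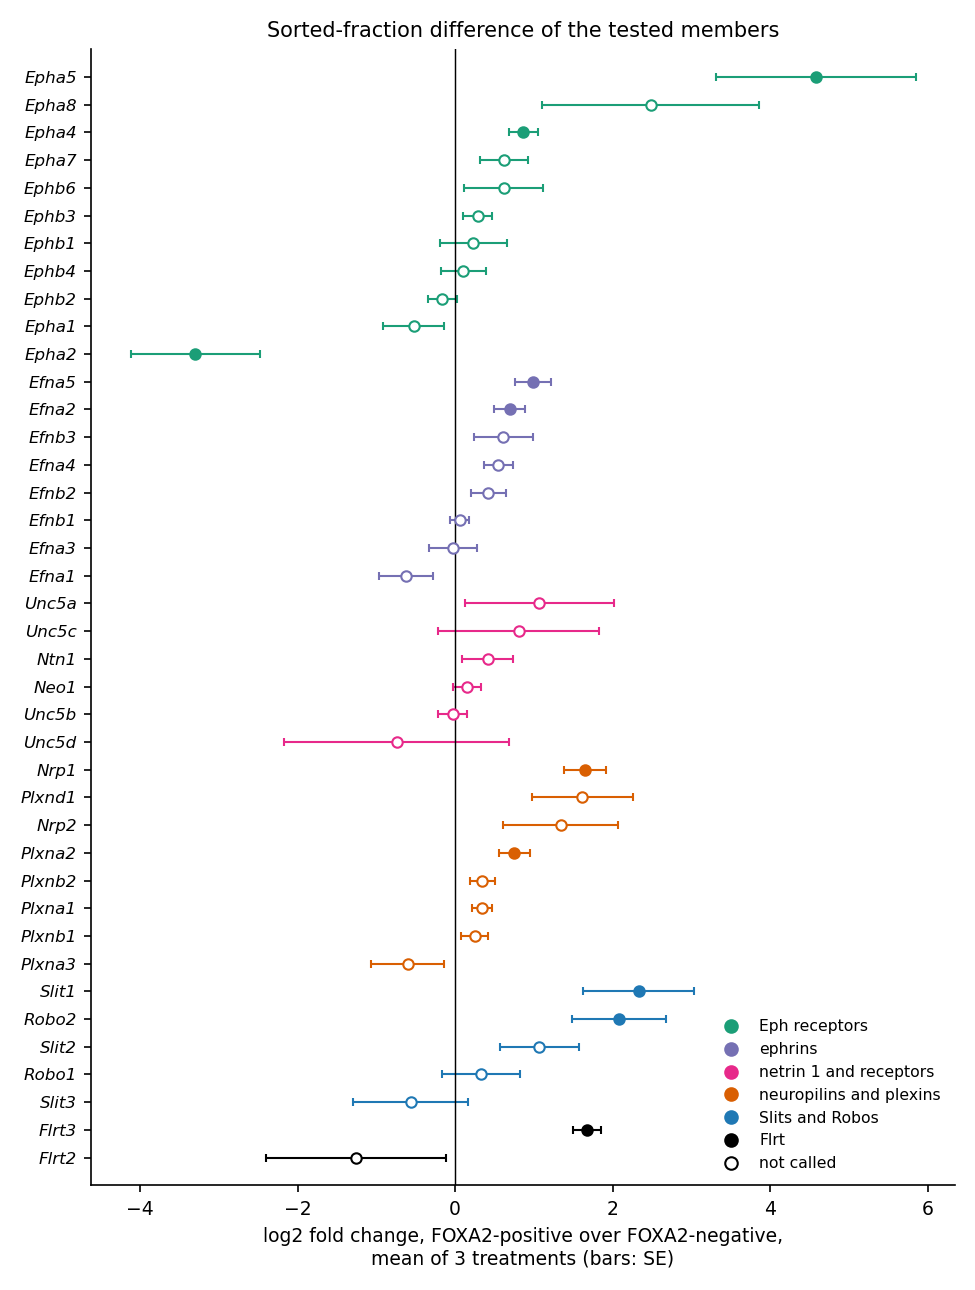
Log2 difference between FOXA2-positive and FOXA2-negative cells, averaged over the 3 arms, for the 40 tested members, ordered within families. Points are edgeR estimates, bars are SE, and filled points passed an adjusted p of 0.05. Flrt3 and Nrp1 lie at 1.68 and 1.65 with short bars, and Epha2 at -3.30, a fitted value that depends on a group at 0, is the filled point to the left of 0.

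Among the ephrins, Efna5 and Efna2 were called higher in FOXA2-positive cells. Efna5, a lipid-anchored ligand of EphA receptors, stood in RA at 21.3, 31.5 and 24.6 CPM against 28.5, 63.2 and 66.0 CPM. The BMP4 libraries had 17.9, 29.9 and 69.0 CPM against 53.9, 56.6 and 54.1 CPM, and in LDN at 29.1, 60.0 and 31.4 CPM against 95.7 and 122 CPM. FOXA2-positive LDN libraries were the highest of all, whereas the fractions overlapped in RA and BMP4. Within each RA replicate number the FOXA2-positive library was the higher one. Log2 differences were 1.03 ± 0.39 for RA, 0.49 ± 0.38 for BMP4 and 1.43 ± 0.42 for LDN (edgeR adjusted p = 0.302, 0.709 and 0.126), and 0.98 ± 0.23 over the arms (0.0095), which held in every alternative fit run. Efna5 was also called in LDN by DESeq2 (1.45, adjusted p = 0.0443), without FOXA2-negative LDN 2 (1.84, 0.0433) and without a filter on low counts (1.43, 2.99e-05), and in RA without that filter (1.03, 0.00398).

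Efna2, another EphA ligand, stood in RA at 10.9, 13.1 and 9.11 CPM against 18.0, 15.9 and 17.7 CPM. In BMP4 it stood at 16.9, 12.5 and 14.2 CPM against 16.9, 28.6 and 20.1 CPM. The LDN libraries had 9.96, 14.96 and 9.80 CPM against 21.4 and 20.2 CPM. The difference was small and of one sign in the 3 arms, with 16.87 against 16.91 CPM for the nearest pair in BMP4. Over the arms it was 0.69 ± 0.20 (edgeR adjusted p = 0.0318), and the call was lost without any 1 of 9 libraries (FOXA2-positive RA 1 and 3, BMP4 2, LDN 2 and 3, FOXA2-negative RA 3, BMP4 2, LDN 1 and 3; adjusted p 0.0508 to 0.0873), without both RA libraries numbered 1 (0.0636), without a filter on low counts (0.0822) and with the replicate number as a block (0.0845). Efna4, an ephrin-A gene, had 26.7 ± 10.99 and 36.8 ± 4.86 CPM in RA, 32.7 ± 9.20 and 48.3 ± 3.83 in BMP4 (SD, n = 3 each) and 21.9 ± 5.13 (n = 3) and 33.4 ± 13.8 (n = 2) in LDN. It differed by 0.55 ± 0.18 (0.0702) and was called with the replicate number as a block (0.60, 0.0224). Efnb1, the highest ephrin-B gene, had 53.5 ± 7.92 and 62.2 ± 11.6 CPM in RA, 52.8 ± 1.29 and 67.6 ± 7.14 in BMP4 and 73.6 ± 14.3 and 55.6 ± 8.51 in LDN, with a difference of 0.06 ± 0.12 (0.909). Of the 8 ephrins, 6 had a positive difference (47.4% of all genes), 2 were called higher (3.12%) and 0 lower (4.5%).

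The Slit and Robo genes were low, and 2 of the 5, Robo2 and Slit1, were called higher in FOXA2-positive cells over the arms (3.12% of all genes). Robo2, a Slit receptor, stood in RA at 2.61, 2.25 and 0.1098 CPM against 6.195, 5.16 and 3.38 CPM. Its BMP4 values were 2.79, 2.37 and 2.64 CPM against 6.42, 6.70 and 7.95 CPM, and in LDN at 0.105, 1.94 and 0.098 CPM against 6.44 and 7.46 CPM. No FOXA2-positive library (lowest 3.38 CPM) overlapped a FOXA2-negative one (highest 2.79 CPM). Its log2 difference over the arms was 2.08 ± 0.60 (edgeR adjusted p = 0.0323), and the call was lost without any 1 of 9 libraries (FOXA2-positive RA 1 and 2, BMP4 2 and 3, LDN 2 and 3, FOXA2-negative BMP4 2, LDN 1 and 3; 0.0517 to 0.0769) and without both RA libraries numbered 1 (0.0516).

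Slit1, a ligand of Robo receptors, stood in RA at 1.36, 0.098 and 0 CPM against 5.64, 6.66 and 3.89 CPM. The BMP4 libraries had 3.84, 4.62 and 1.79 CPM against 7.75, 3.56 and 7.27 CPM, and in LDN at 0, 0.194 and 3.73 CPM against 7.95 and 9.03 CPM. The fractions were apart in RA and LDN and overlapped in BMP4. The difference over the arms was 2.33 ± 0.70 (edgeR adjusted p = 0.0397), lost without any 1 of 13 of the 17 libraries (all but FOXA2-negative RA 1 and LDN 3 and FOXA2-positive RA 3 and BMP4 2; 0.0512 to 0.0826). Slit2, at 0.784 to 8.597 CPM, had 1.07 ± 0.50 (0.225), and DESeq2 called it (1.07, 0.0496). Robo1 (0.33 ± 0.50, 0.833) and Slit3 (-0.56 ± 0.73, 0.781) were not called.

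**Figure D3:**
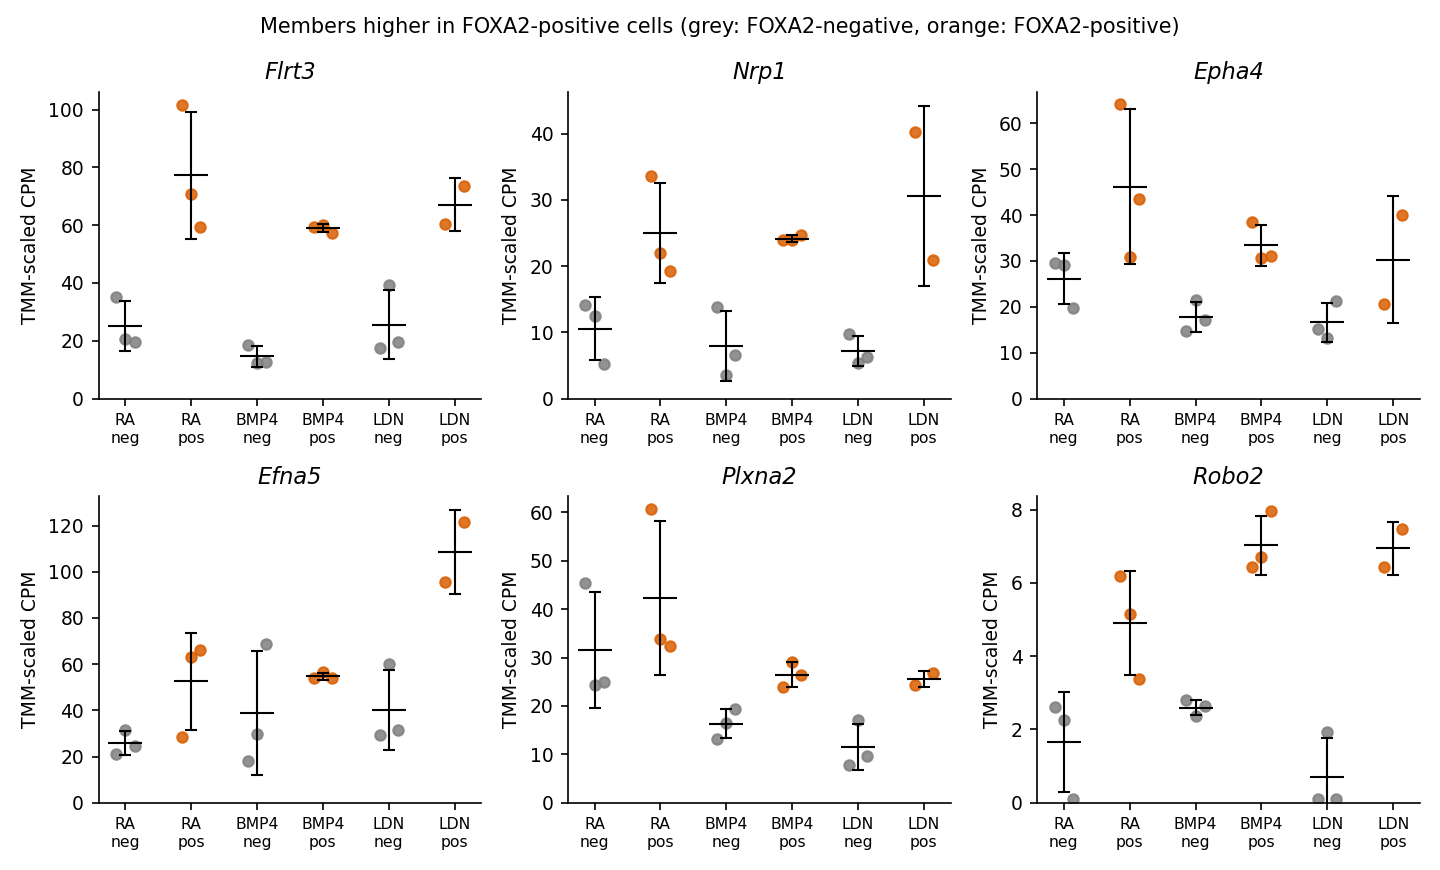
TMM-scaled CPM of 6 members called over the 3 arms, by group. Each point is a library (grey FOXA2-negative, orange FOXA2-positive), horizontal lines are means and bars SD (n = 3, and 2 for FOXA2-positive LDN). For Flrt3, Nrp1 and Robo2 all orange points lie above all grey points, for example 57.3 to 102 against 12.5 to 39.4 CPM for Flrt3.

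Across all members, Nrp1, Robo2 and Flrt3 were the 3 of 40 whose 8 FOXA2-positive libraries all exceeded the 9 FOXA2-negative ones, against 0.32% of all genes tested, and 0 members lay wholly below (0.825% of all genes). Within RA, 11 members were higher without overlap (7.25% of all genes) and 2 lower (7.99%), within BMP4 14 higher (7.51%) and 1 lower (7.31%), and within LDN, with 2 libraries against 3, 13 higher (13.1%) and 2 lower (14.7%). None of the 6 tested members of the netrin system was called between fractions by edgeR in any arm (unadjusted p under 0.05 only for Unc5a in BMP4, at 0.0231) or over the arms, where all 6 had an unadjusted p above 0.05, and DESeq2 called none. Of all genes, 10.8% had an unadjusted p under 0.05 in BMP4 and 20.2% over the arms. Ntn1, the classical floor plate cue, had 7.88 ± 2.69 and 8.97 ± 3.70 CPM in the RA fractions and 3.55 ± 1.28 and 4.01 ± 1.34 CPM in the BMP4 fractions. In the LDN fractions it had 7.57 ± 2.12 (n = 3) and 13.97 ± 2.06 CPM (n = 2). Its log2 difference over the arms was 0.41 ± 0.32 (edgeR adjusted p = 0.54). Neo1 had 27.4 ± 8.93 and 25.9 ± 2.46 CPM in RA, 22.2 ± 2.18 and 27.0 ± 6.46 in BMP4 and 17.8 ± 2.77 and 21.2 ± 2.26 in LDN, with a difference of 0.15 ± 0.18 (0.734). A p above the threshold does not show that these levels were alike.

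Markers of other cell types moved with the fraction. Of 14 pluripotency genes 13 were called lower in FOXA2-positive cells over the arms, and their summed level was 1049 to 1344 CPM against 373.5 to 523.9 CPM in RA, 837.1 to 1280 against 556.3 to 644.3 in BMP4 and 873.1 to 1257 against 402 to 444.6 in LDN. Of 13 surface ectoderm genes 6 were lower and Krt19 higher, with sums of 723.7 to 836.3 against 413.6 to 513.5 CPM in RA, 871.9 to 897.4 against 747.4 to 872.4 in BMP4 and 871.3 to 1035 against 458.9 to 537.1 in LDN. Of the tested endoderm genes, Sox17 and Foxa1 were among those called higher, and the list had sums of 5.16 to 28.3 against 64.2 to 72.4 CPM in RA, 19.9 to 36.8 against 56.0 to 113.6 in BMP4 and 11.3 to 41.9 against 84.8 to 100.5 in LDN. Cer1 was at 0 in all libraries, and Afp at 0 in all FOXA2-positive ones. Of 9 tested neuron genes 3 were lower (Tubb3, Elavl3 and Stmn2) and 0 higher, with sums of 114.2 to 122.4 against 63.5 to 70.2 CPM in RA, 88.4 to 92.2 against 54.1 to 70.8 in BMP4 and 125.1 to 143.6 against 82.5 to 83.3 in LDN. Of 7 tested floor plate genes Foxa2 and Foxa1 were higher and Lmx1a lower, with sums of 18.9 to 54.1 against 47.3 to 76.1 CPM in RA, 20.6 to 45.96 against 70.0 to 89.1 in BMP4 and 46.8 to 48.2 against 90.8 to 100.3 in LDN. These sums include Foxa2, the gene that defines the fractions, so their difference is in large part set by the sort. Foxa2 alone had means of 0.31 and 23.0 CPM in RA, 0.775 and 25.85 in BMP4 and 1.85 and 42.0 in LDN. Of 9 endothelium genes, a cell type where Nrp1, Unc5b and Plxnd1 are also known, 5 were tested, of which 3 had a positive difference and 1, Pecam1, was called lower. Their sums were 84.6 to 107.4 against 68.2 to 101.4 CPM in RA, 95.1 to 114.5 against 73.8 to 76.9 in BMP4 and 93.5 to 107.3 against 81.9 to 102.7 in LDN, while Cdh5 and Emcn were at 0 in all 17 libraries. Of 11 tested neural progenitor genes Cdh2, Ncam1 and Pax3 were higher and none lower, with sums of 498.5 to 577.7 against 715.3 to 745 CPM in RA, 463 to 575.2 against 527.5 to 758.8 in BMP4 and 696.2 to 751.4 against 1047 to 1148 in LDN. The part of these markers in the members' differences was not tested.

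The second comparison asked which members differ between BMP4 and LDN, arms that share their schedule. Unc5b was the 1 member of 40 called in FOXA2-negative cells (0.196% of all genes tested, 0.124% higher and 0.073% lower) and the 1 called in FOXA2-positive cells (0.32%, with 0.236% higher and 0.0842% lower). Unc5b encodes a netrin receptor that also binds FLRT proteins and is known for repulsion. In FOXA2-negative cells it stood at 80.6, 52.3 and 62.7 CPM in BMP4 against 6.81, 12.5 and 11.6 CPM in LDN. In FOXA2-positive cells it stood at 72.3, 70.0 and 48.6 CPM against 16.4 and 8.43 CPM. In RA libraries it stood at 20.4, 29.7 and 17.2 CPM (FOXA2-negative) and 15.9, 17.5 and 20.2 CPM (FOXA2-positive). The 6 BMP4 libraries lay above all 11 others, as in 0.174% of all genes (0.0168% lay wholly below, and 0 members), and every RA library but 1 lay above all LDN libraries.

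The log2 difference between BMP4 and LDN was 2.66 ± 0.32 (edgeR adjusted p = 1.82e-05) in FOXA2-negative and 2.35 ± 0.36 (0.000843) in FOXA2-positive cells. The first held with each library left out, and the second was lost without FOXA2-positive LDN 3 (1.96, adjusted p = 0.0723), which leaves 1 library in that group. The fractions themselves differed by -0.04 ± 0.29 in BMP4 (adjusted p = 1.0) and 0.27 ± 0.34 in LDN (0.832), and over the arms by -0.03 ± 0.18 (1.0).

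Efna1, a ligand of EphA2, was also higher in BMP4 than in LDN, without being called by edgeR. In RA it stood at 3.92 to 11.3 CPM (FOXA2-negative) and 1.43 to 3.57 CPM (FOXA2-positive). These RA values overlapped LDN in both fractions, and the highest lay within the range of the BMP4 libraries. It is given outside the rule for naming because its 6 BMP4 libraries (8.92 to 20.5 CPM, median 15.7) did not overlap the 5 LDN libraries (1.57 to 5.20 CPM, median 3.03), and it was chosen after its values were seen. The log2 difference was 2.26 ± 0.58 (edgeR adjusted p = 0.15) in FOXA2-negative and 2.66 ± 0.70 (0.134) in FOXA2-positive cells. DESeq2 called both (2.28, adjusted p = 0.0182, and 2.66, 0.0104). Ntn1, chosen in the same way, went the other way, with 2.37 to 4.91 CPM (median 4.06) in BMP4 and 5.15 to 15.4 CPM (median 9.12) in LDN. Its log2 difference was -1.09 ± 0.55 (edgeR adjusted p = 0.711) and -1.80 ± 0.60 (0.37), and neither tool called it. Efna1 and Unc5b were the 2 members higher without overlap in BMP4 (0.567% of all genes tested) and Ntn1 the 1 lower (0.46%).

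Epha2 itself was at 0 in both FOXA2-positive LDN libraries and at 4.36 to 5.66 CPM in FOXA2-positive BMP4 libraries, at least 31.2-fold higher (151 counts against 0). This was not called by edgeR (adjusted p = 0.064) and was called by DESeq2 (0.00155). In FOXA2-negative cells the arms overlapped, at 2.91 to 4.34 CPM in BMP4 and 1.36 to 5.03 CPM in LDN (log2 difference -0.11 ± 1.02, adjusted p = 1.0). Epha7, an EphA receptor with 3.38 to 36.2 CPM, was lower in BMP4 by estimate in both fractions (-1.50 ± 0.52, adjusted p = 0.51, and -1.58 ± 0.55, 0.428) without a call. Nrp2, the other neuropilin, spread widely within groups (1.29 to 25.7 CPM in FOXA2-negative BMP4 cells, and 11.5 and 0 CPM in FOXA2-positive LDN cells), with 3.26 ± 1.35 (0.697) and 1.87 ± 1.41 (0.797).

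**Figure D4:**
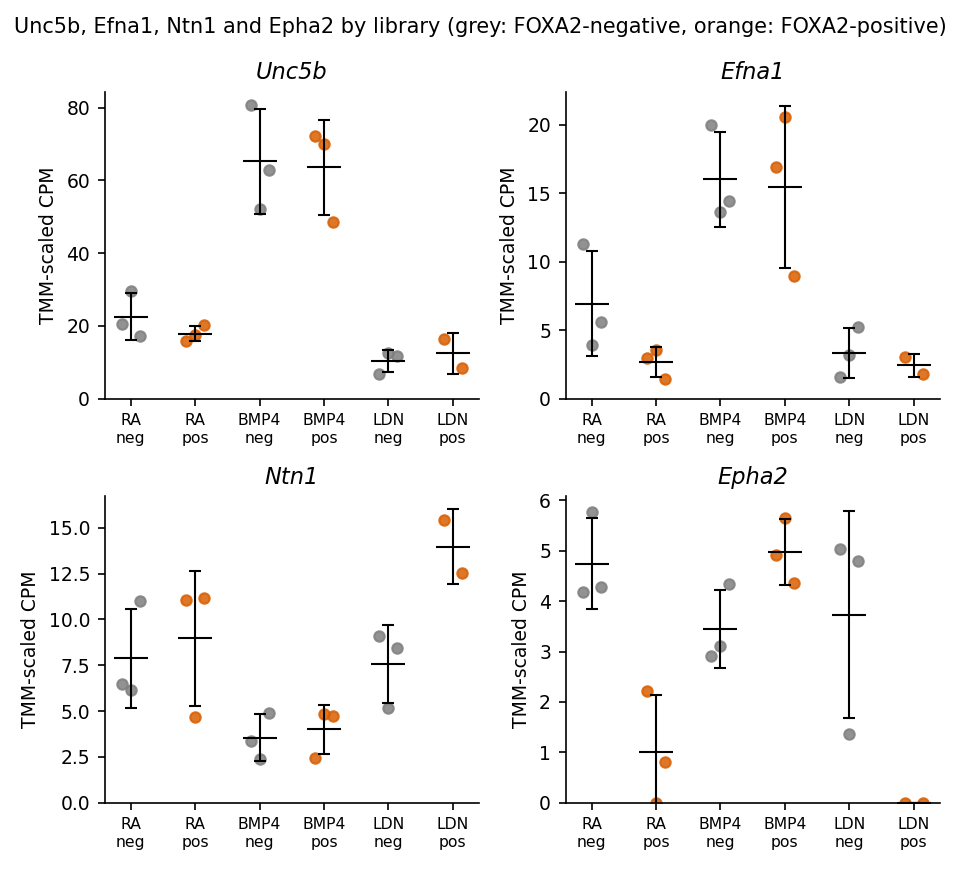
TMM-scaled CPM of Unc5b, Efna1, Ntn1 and Epha2 by group. Each point is a library (grey FOXA2-negative, orange FOXA2-positive), horizontal lines are means and bars SD (n = 3, and 2 for FOXA2-positive LDN). Unc5b is at 48.6 CPM or more in all BMP4 libraries and at 29.7 CPM or less elsewhere, and Epha2 is at 0 in both FOXA2-positive LDN libraries.

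Markers of other cell types also moved between BMP4 and LDN. Of 13 surface ectoderm genes, Tfap2a, Dlx5 and Gata3 were called higher in BMP4 in FOXA2-negative cells and 5 in FOXA2-positive cells (Tfap2a, Tfap2c, Krt18, Krt19 and Gata3), and none lower. Their summed level was 871.9 to 897.4 CPM in BMP4 and 871.3 to 1035 CPM in LDN in FOXA2-negative cells, and 747.4 to 872.4 against 458.9 to 537.1 CPM in FOXA2-positive cells. Trp63 was at 0 in all BMP4 libraries. Among 11 tested neural progenitor genes, Pax3 was called higher and Sox1 lower in FOXA2-negative BMP4 cells, and Sox3 and Ncam1 were called lower in FOXA2-positive BMP4 cells. The neural progenitor sums were 463 to 575.2 CPM in BMP4 against 696.2 to 751.4 in LDN (FOXA2-negative) and 527.5 to 758.8 against 1047 to 1148 (FOXA2-positive). Neuron sums were 88.4 to 92.2 against 125.1 to 143.6 CPM and 54.1 to 70.8 against 82.5 to 83.3 CPM, with 0 genes called. Of 14 pluripotency genes Tbx3 was called higher in BMP4 in both fractions (log2 difference 2.73 and 5.16). The part of these markers in the Unc5b difference was not tested.

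**Figure D5:**
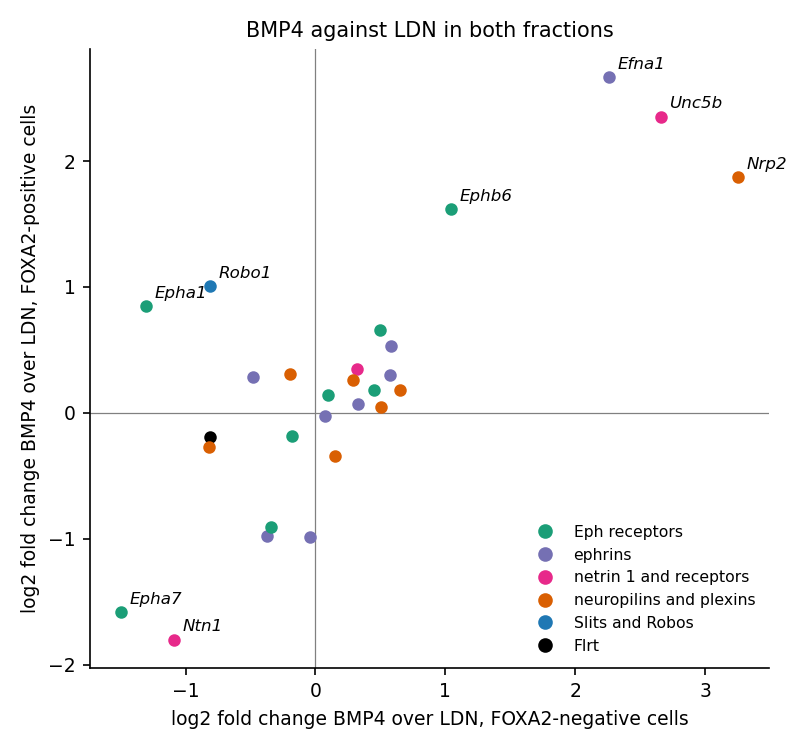
Log2 difference between BMP4 and LDN in FOXA2-negative (horizontal) and FOXA2-positive cells (vertical), for the tested members with a mean of at least 5 CPM. Each point is a gene, coloured by family, and members past a log2 difference of 1 in either fraction are named. Unc5b lies at 2.66 and 2.35 and Efna1 at 2.26 and 2.66, while Ntn1 lies at -1.09 and -1.80.

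Against RA, treatment and time of collection cannot be told apart, and the BMP4 and LDN comparisons share the RA libraries. Unc5b was the 1 member of 40 called higher in BMP4 in each fraction. In all genes 0.0786% were called in each fraction, 0.0561% higher and 0.0225% lower in FOXA2-negative and 0.0674% higher and 0.0112% lower in FOXA2-positive cells. Unc5b was higher by 1.54 ± 0.30 (edgeR adjusted p = 0.0441) in FOXA2-negative and 1.83 ± 0.30 (0.00529) in FOXA2-positive cells. The first call was lost without any 1 of the 6 libraries compared (0.0604 to 0.21), without both RA libraries numbered 1 (0.145), in a model of the 2 groups alone (0.153) and with the replicate number as a block (1.58, 0.0541). The second was lost without FOXA2-positive RA 1 (0.0659), RA 2 (0.0569) or BMP4 1 (0.059), and without both RA libraries numbered 1 (0.0569). Unc5b in LDN was below RA by estimate, at -1.12 ± 0.31 (adjusted p = 0.416) in FOXA2-negative and -0.52 ± 0.34 (0.635) in FOXA2-positive cells.

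Between LDN and RA edgeR called 0 members in FOXA2-negative cells (0.0393% of all genes, 0.0112% higher and 0.0281% lower), with 6 at an unadjusted p under 0.05, and 0 in FOXA2-positive cells (0.208%, 0.073% higher and 0.135% lower), with 4. Of all genes, 7.5% and 9.35% had an unadjusted p under 0.05 in these 2 comparisons. DESeq2 called 1 in each, Plxna2 lower in FOXA2-negative LDN cells (-1.45, adjusted p = 0.0429; edgeR 0.2) and Epha7 higher in FOXA2-positive LDN cells (2.04, 0.0485; edgeR 0.158). Plxna2 was highest in RA, at 31.6 ± 12.0 CPM in FOXA2-negative and 42.3 ± 15.9 in FOXA2-positive cells (SD, n = 3 each), against 11.5 ± 4.83 (n = 3) and 25.6 ± 1.62 (n = 2) in LDN. Both groups of RA libraries had their highest value in library 1.

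Whether the fraction difference itself depended on the arm was tested by interaction. edgeR called 0 members for BMP4 against LDN (0.0337% of all genes), 0 for BMP4 against RA (0.00561%) and 0 for LDN against RA (0.00561%). At an unadjusted p under 0.05 there were 4, 2 and 2 of 40 members, against 6.18%, 4.17% and 5.81% of all genes. DESeq2 called 1, 0 and 0, the one being Epha2 for BMP4 against LDN (adjusted p = 0.0335). For Flrt3, Nrp1 and Epha4 the differences in the arms were not shown to differ.

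The rest of the guidance families and their partners were read from lists. Of 10 tested further family members, among them Epha10, Robo3, Flrt1 and Draxin, 0 were called by edgeR in any comparison. Of all genes, 0.00561% to 7.62% were called, depending on the comparison. Of 19 tested semaphorins, the ligands of neuropilins and plexins, Sema4c was the 1 called over the arms (7.62% of all genes), higher in FOXA2-positive cells, at 9.39 ± 2.73 against 15.04 ± 1.72 CPM in RA, 5.30 ± 4.94 against 20.8 ± 4.31 in BMP4 and 11.2 ± 4.87 against 13.2 ± 0.12 in LDN (log2 difference 0.96 ± 0.30, edgeR adjusted p = 0.0481). Of 36 tested intracellular effectors 5 were higher over the arms (3.12% of all genes) and 0 lower (4.5%). They were Fyn, a kinase downstream of Eph receptors (0.62 ± 0.17, adjusted p = 0.0268), Mical3 (0.58 ± 0.17, 0.0373) and Farp1 (0.48 ± 0.14, 0.0375), relatives or partners of plexin signalling, the plexin-binding GTPase Rnd2 (0.54 ± 0.16, 0.039) and the collapsin response gene Dpysl5 (0.60 ± 0.19, 0.0461). No gene of these lists was called in any other comparison (0.00561% to 1.19% of all genes). Their median differences over the arms were 0.17 (further members), -0.11 (semaphorins) and 0.17 (effectors), against -0.03 over all genes tested.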

How the data were processed

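Read counts per gene were deposited by the authors for 17 SMART-Seq v2 libraries. Per the submitters' processing notes, the tools included HTSeq 0.11.2, cutadapt 1.18 and UMI-tools 1.0.0, with DESeq2 1.26.0, and the build was mm10. Aligner, annotation release and strand setting: not given in the sources used here. Summary lines that name no gene (49.3% to 54.4% of a table's counts) were left out. Genes were named from GENCODE M21.

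The deposited counts were tested with edgeR 4.0.16 (R 4.3.3; TMM scaling, robust quasi-likelihood, minimum count 10 and total 15) in 1 model of 6 groups with 11 residual degrees of freedom. All 17813 genes that passed were adjusted together by the Benjamini-Hochberg method at 0.05, and SE was derived from the F statistic. The common biological coefficient of variation was 0.632, so small differences can be missed at this number of libraries. The pipeline was run on simulated data with a smaller spread than that of these libraries. That run therefore cannot show how many changes are found or falsely called here. DESeq2 1.42.0, other scaling and filters, models of the groups compared alone, the replicate block and left-out libraries were the alternatives.

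The members and lists were chosen with earlier results of these data known. Members called in any comparison are given library by library, uncalled members with a mean of at least 20 CPM by group, and genes of the other lists where called. Some marker genes are not reported here. The remaining members are given by counts, ranges or a single difference, and those among them named with values were chosen after their values were seen.

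Same-numbered fractions deviated together in RA (r 0.587, 0.238 and 0.277 over 6669 genes), and not in BMP4 (0.051 to 0.079) or LDN (0.057 to 0.062). Deviations were taken from group means, so the RA values are not independent of each other, and both RA libraries numbered 1 stood apart. FOXA2-negative libraries numbered 1 also gave r 0.283 between RA and BMP4 and 0.116 between RA and LDN. The other values between arms were -0.163 to 0.1. The numbers may pair the RA libraries, but this check cannot settle it, and no label states a pairing. The main model does not use any pairing, so its p-values for RA and over the arms are unpaired. With the replicate block 362 of all genes were called for the RA fractions, against 212 in the main model.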

Additional observations from a re-analysis of the deposited data

Results flagged for a closer look

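By library, the fractions of Epha2 lay in opposite orders between arms, and edgeR called no interaction. In BMP4 the log2 difference was 0.52 ± 1.02 (edgeR adjusted p = 0.945), and the nearest pair was 4.36 against 4.34 CPM. All 3 FOXA2-positive BMP4 libraries (4.36 to 5.66 CPM) lay above all FOXA2-negative ones (2.91 to 4.34 CPM), while all FOXA2-positive RA libraries (0 to 2.21 CPM against 4.18 to 5.78 CPM) and LDN libraries (0 against 1.36 to 5.03 CPM) lay below theirs. The fitted log2 interaction was 8.718 for BMP4 against LDN (edgeR adjusted p = 0.366, DESeq2 adjusted p = 0.0335) and 2.752 for BMP4 against RA (edgeR adjusted p = 1.0). The first rests on a group at 0 counts, so its size is no bound.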

How the results depend on the processing

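Of 19 calls of members, 7 held in every alternative: Flrt3 in RA, in BMP4 and over the arms, Epha4, Efna5 and Nrp1 over the arms, and Unc5b between BMP4 and LDN in FOXA2-negative cells. In 336 alternative fits 267 kept the call, 69 lost it and 0 reversed. Without a filter on low counts the members called were 2 for the RA fractions, 2 for BMP4, 5 for LDN, 2 and 3 for BMP4 against LDN (FOXA2-negative and FOXA2-positive), 2 for BMP4 against RA in FOXA2-positive cells, and 2 and 1 for LDN against RA. In the same order, 466, 411, 460, 141, 196, 100, 83 and 294 of all genes were called. The main fit called 212, 164, 177, 35, 57, 14, 7 and 37 of all genes. DESeq2 called 2 for the BMP4 fractions, 2 and 3 for BMP4 against LDN, 2 for BMP4 against RA in FOXA2-positive cells, 1 and 1 for LDN against RA, and 1 for the BMP4 and LDN interaction. In the same order, it called 420, 117, 174, 46, 39, 209 and 34 of all genes. The main fit called 164, 35, 57, 14, 7, 37 and 6 of all genes there. With only the groups compared there were 1 for the LDN fractions, 2 for BMP4 against LDN in FOXA2-positive cells and 0 for BMP4 against RA in FOXA2-negative cells. Of all genes, 212, 95 and 3 were called in these, against 177, 57 and 14 in the main fit. With the replicate block there were 2 for the BMP4 fractions (282 of all genes, 164 in the main fit) and 0 for BMP4 against RA in FOXA2-negative cells (6 of all genes, 14 in the main fit). Without both RA libraries numbered 1, BMP4 against RA gave 0 and 0 (9 and 9 of all genes, 14 and 14 in the main fit). With 1 library left out, counts ranged from 1 to 2 (BMP4 fractions), 0 to 4 (LDN fractions), 5 to 11 (over the arms), 0 to 1 (BMP4 against LDN, FOXA2-positive), 0 to 0 and 0 to 1 (BMP4 against RA). The lowest over the arms were 5 without FOXA2-positive LDN 3, and 6 without FOXA2-positive LDN 2 or RA 1. When FOXA2-positive LDN loses a library, the lone one is assumed to vary like the other groups. The cause of these changes was not tested. Epha5 and Epha2 each have a group with 0 counts, and what that allows is given as a bound.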
